A study of Rattus norvegicus with 25 samples.

Results

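Contactins and related adhesion molecules of the immunoglobulin superfamily were followed across the striatum of adolescent rats: the contactins Cntn1, Cntn3, Cntn4, Cntn5 and Cntn6, the neural cell adhesion molecules Ncam1 and Ncam2, the Down syndrome cell adhesion molecule Dscam, and L1cam. Every probe set that the platform annotation gives to exactly 1 of these 9 symbols was taken. This gave 10 probe sets out of 29214, since Dscam has a pair of them (10753393 and 10753419) and each other gene has 1. The main tests used the brighter part of the table, that is the 14607 probe sets whose mean over the arrays was not below the median probe-set mean. Of the 10 probe sets 9 were kept, and Dscam 10753419 fell just short of it, with a mean of 6.93 against a filter minimum of 6.97.

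Striata were taken at PND 35 to 42 from male rats of the Lister Hooded strain, and RNA was hybridised to Affymetrix rat gene 1.0st arrays, 1 per animal and 25 in all. Nic offspring (7 arrays) were born to dams that had a nicotine solution as their drinking fluid before and during gestation. Con-Pf offspring (10 arrays) were born to dams without nicotine whose food was matched to the intake of the nicotine dams, and Con offspring (8 arrays) to dams with neither nicotine nor food matching. The labels do not give the litter of an animal, so that animals of 1 litter cannot be recognised. Con-Pf 9 and Con-Pf 10 are food-matched by title and source name but control by description, and were treated by title. The study's methods give both versions. They list 10 Con and 10 Con-Pf animals and the removal of 2 Con samples, which goes with the titles. For the arrays analysed they give 10 Con and 8 Con-Pf, which goes with the descriptions. The group of these 2 arrays is therefore not settled. With them counted as Con, 0 of the 10 probe sets were called in each comparison, and 0 of the partner genes described at the end. Values are log2 levels from RMA, in which a difference of 1 is a doubling. Levels of different probe sets are not comparable on such an array, so that each gene is compared only with itself.

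Adhesion molecules of this superfamily sit on the surface of neurons and glia, bind partners on the same or a neighbouring cell through immunoglobulin and fibronectin domains, and steer axon growth, the sorting of axons into bundles and the formation of synapses and myelin. Contactins are held in the membrane by a lipid anchor and have no part inside the cell, so that they signal through partners such as Cntnap proteins, receptor phosphatases and L1 family members. L1cam, Ncam1 and Dscam span the membrane and reach the cytoskeleton through ankyrins, spectrins or kinases.

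For regulatory context, start-site windows from RefSeq (build GRCr8, 250 bases before to 50 bases after the start) were found for 7 of the 9 genes. Those of Cntn6 and Cntn5 are shown because these contactins had the most closely related levels across animals of any pair of contactins, and that of Cntn4 because Cntn4 is the next coding gene after Cntn6 in the RefSeq gene order. Each is written 5′ to 3′ on the strand of its gene, and capitals mark matches, on either strand, to the TATA box with the letters TATAAA, to the CCAAT box, which is named by its letters, or to the GC box with the letters GGGCGG. None of these motifs contains another.
Cntn6 (chr4:138911317-138911616, plus strand): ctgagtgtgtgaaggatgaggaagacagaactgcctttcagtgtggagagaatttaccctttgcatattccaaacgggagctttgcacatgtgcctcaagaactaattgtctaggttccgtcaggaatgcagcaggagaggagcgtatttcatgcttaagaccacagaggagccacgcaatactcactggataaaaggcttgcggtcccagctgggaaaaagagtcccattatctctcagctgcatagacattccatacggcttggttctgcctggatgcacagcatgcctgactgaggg
Cntn5 (chr8:15731908-15732207, minus strand): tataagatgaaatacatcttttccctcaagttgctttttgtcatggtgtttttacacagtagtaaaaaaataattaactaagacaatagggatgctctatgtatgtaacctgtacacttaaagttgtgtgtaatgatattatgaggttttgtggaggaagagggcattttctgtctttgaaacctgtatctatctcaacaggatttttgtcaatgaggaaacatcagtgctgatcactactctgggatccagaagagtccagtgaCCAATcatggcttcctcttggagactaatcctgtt
Cntn4 (chr4:140180571-140180870, plus strand): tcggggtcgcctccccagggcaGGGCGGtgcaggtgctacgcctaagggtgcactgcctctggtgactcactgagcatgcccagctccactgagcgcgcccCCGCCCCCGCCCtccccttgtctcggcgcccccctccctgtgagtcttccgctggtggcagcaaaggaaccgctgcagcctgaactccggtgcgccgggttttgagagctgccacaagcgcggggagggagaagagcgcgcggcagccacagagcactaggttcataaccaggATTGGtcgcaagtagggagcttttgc

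The Cntn6 window held no match to any of the 3 motifs. The Cntn5 window held 1 CCAAT match, and the Cntn4 window held 1 CCAAT match and 3 GC box matches. Over the 33469 windows of the same length, 37.5% held a CCAAT match, 33.1% a GC box match and 14.2% a TATA box match. G and C made up 49.3% of the Cntn6 window, 36.7% of the Cntn5 window and 66.7% of the Cntn4 window, beside a median of 51.7% over all windows. The CpG dinucleotide occurred 6 times in the Cntn6 window, 0 times in the Cntn5 window and 21 times in the Cntn4 window. Thus the windows of the contactin genes differed from one another in base composition. The Cntn3 window was among the poorest in G and C (30.7%), while the windows of Ncam2 (72.7%) and Dscam (67.7%) were rich in both.

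The tissue label was checked against marker genes. Of 11 markers of striatal projection neurons 10 were kept, and their mean level lay between 11.65 and 11.85 on every array. On the first principal component (30.45% of the variance) Con 5 (a score of -33.9) and Con 3 (-25.2) stood apart from the other arrays, the next being Con 1 (-11.6). Markers of choroid plexus, the tissue that makes cerebrospinal fluid, were very high on Con-Pf 4 (a Ttr level of 13.7) and Con 2 (13.5), and reached at most 11.6 on the other arrays. Mean levels of the 4 cortical excitatory neuron markers kept, of 8 listed, lay between 8.84 and 10.2 in Nic, 8.76 and 9.22 in Con-Pf and 8.86 and 9.69 in Con. This mean was highest in Nic 2, Nic 7 (9.84) and Con 5, as were Slc17a7 and Cck. The other markers kept did not all follow, since Nrgn was at its lowest of all arrays on Con 5 (13.27), where Fezf2 was at 7.06. No gene of the marker lists was called in any comparison. Where Con 3 and Con 5 or Con-Pf 4 and Con 2 were among the extreme arrays of a gene, values without them are given for the comparisons that they moved most. In bulk tissue, fewer cells of a type and less RNA per cell cannot be told apart.

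No contactin, NCAM, DSCAM or L1 probe set passed the test between any pair of groups. Differences were tested with limma, in 1 fit over the 3 groups, with Benjamini-Hochberg adjusted p-values over the 14607 probe sets kept and a call at an adjusted p under 0.05. In Nic against Con 0 of 9 probe sets were called, beside 0% of all probe sets kept (0 of 14607), in Con-Pf against Con 0 of 9, beside 1.26% (184), and in Nic against Con-Pf 0 of 9, beside 0.185% (27). Without the adjustment, 0 of 9 had a limma p under 0.05 in each comparison, whereas 16.2% of all probe sets kept did so in Nic against Con, 22% in Con-Pf against Con and 4.36% in Nic against Con-Pf. The count was also 0 with the methods' t-test in each comparison, beside 1579, 1935 and 954 of the 14607 probe sets kept, in the same order. For all 10 probe sets the ranges of the groups overlapped in every comparison. The share of all probe sets that did so is not given here, so that this only describes the 10.

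**Figure D1:**
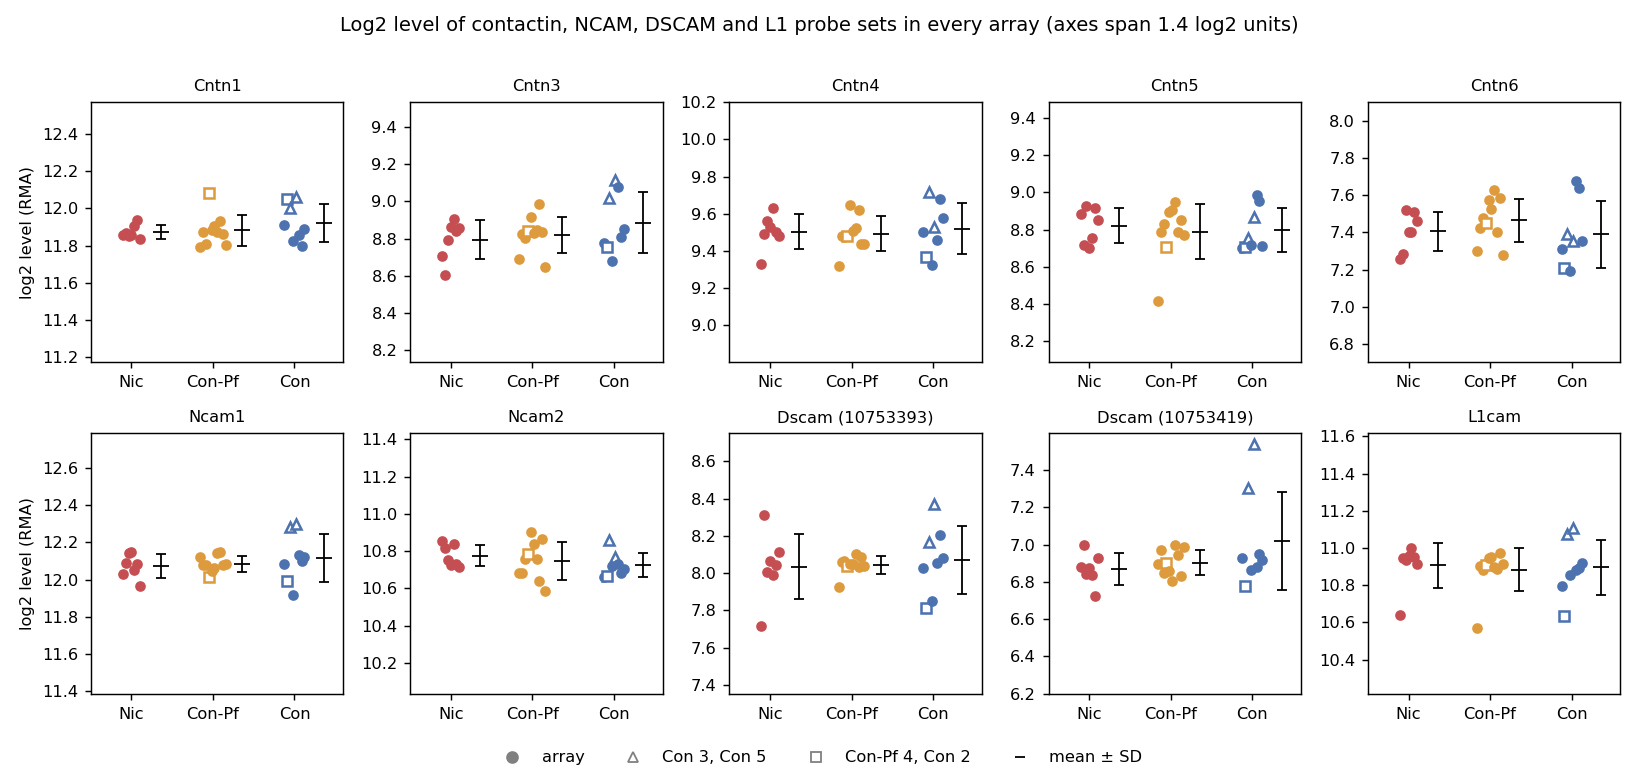
Log2 level (RMA, vertical axes, each 1.4 log2 units high) of each probe set on every array, in the groups Nic (7 arrays), Con-Pf (10) and Con (8), with the mean and SD beside the points. Open triangles are Con 3 and Con 5 and open squares Con-Pf 4 and Con 2. The groups overlap in every panel, and Con 3 and Con 5 are the highest points of Ncam1, L1cam and Dscam 10753419.

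Cntn1 is the contactin of the paranodal junction, where axon and myelinating glia meet. Its level was 11.84, 11.86 and 11.94 (lowest, median and highest) in Nic, 11.79, 11.87 and 12.08 in Con-Pf and 11.80, 11.90 and 12.06 in Con. The Nic animals formed the narrowest group, within 0.10 of each other, and the highest values came from Con-Pf 4, Con 5, Con 2 and Con 3. The difference was -0.05 ± 0.04 (SE) in Nic against Con (adjusted p = 0.541, limma), -0.04 ± 0.04 in Con-Pf against Con (adjusted p = 0.545) and -0.01 ± 0.04 in Nic against Con-Pf (adjusted p = 0.999). Without Con 3 and Con 5 the first of these was -0.01 ± 0.04 and the second -0.0060 ± 0.04. Of all probe sets kept, 13.7% had a smaller SD within groups than Cntn1 (0.0807, beside a median of 0.121).

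Cntn3, Cntn4 and Cntn6 lie on 1 chromosome in the RefSeq gene order, with the L1 relative Chl1 between Cntn3 and Cntn6 and Cntn4 next to Cntn6. Cntn3 (also BIG-1) supports neurite growth in culture. It measured 8.60, 8.84 and 8.91 (lowest, median and highest) in Nic, 8.65, 8.83 and 8.98 in Con-Pf and 8.68, 8.83 and 9.11 in Con. The medians were nearly equal, and the Con range reached higher through Con 5, Con 6 and Con 3 (9.11, 9.08 and 9.02). Its difference of -0.09 ± 0.06 in Nic against Con (adjusted p = 0.439, limma) was the greatest in size among the 9 probe sets, and with Con 3 and Con 5 left out it was -0.03 ± 0.06. In Con-Pf against Con the difference was -0.06 ± 0.06 (adjusted p = 0.511), and -0.0037 ± 0.06 without them.

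Cntn4, known in mouse for a part in guiding olfactory and optic axons and for binding App, measured 9.33, 9.50 and 9.63 (lowest, median and highest) in Nic, 9.32, 9.48 and 9.65 in Con-Pf and 9.33, 9.52 and 9.72 in Con. Thus the 3 groups started at nearly the same level, and Con 3 was the highest array. The difference was -0.02 ± 0.06 in Nic against Con and -0.03 ± 0.05 in Con-Pf against Con (adjusted p = 0.893 and 0.771, limma). With Con 3 and Con 5 left out these were 0.02 and 0.01, opposite in direction and again smaller than their errors.

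Cntn5 and Cntn6 are neural contactins known in mouse from the auditory pathway and the cerebellum. Cntn5 measured 8.70, 8.85 and 8.93 (lowest, median and highest) in Nic, 8.42, 8.81 and 8.95 in Con-Pf and 8.70, 8.74 and 8.99 in Con. Con-Pf 1 lay well below every other array. The Cntn5 difference was 0.02 ± 0.06 in Nic against Con, -0.01 ± 0.06 in Con-Pf against Con and 0.03 ± 0.06 in Nic against Con-Pf (adjusted p = 0.867, 0.936 and 0.999, limma).

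Cntn6 measured 7.26, 7.40 and 7.52 (lowest, median and highest) in Nic, 7.28, 7.47 and 7.63 in Con-Pf and 7.19, 7.35 and 7.68 in Con. The Con group alone spanned the whole range of the 25 arrays, through Con 4 at its low end and Con 6 and Con 7 at its high end. The Cntn6 difference was the highest above 0 of the 9 in Con-Pf against Con, at 0.07 ± 0.06 (adjusted p = 0.485, limma), while it was 0.01 ± 0.07 in Nic against Con and -0.06 ± 0.07 in Nic against Con-Pf (adjusted p = 0.917 and 0.999). Unlike Ncam1 and L1cam, neither Cntn5 nor Cntn6 was high on Con 3 and Con 5, which ranked 16 and 9 of the 25 arrays for Cntn5, and 16 and 18 for Cntn6.

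Ncam1 binds itself across cells and carries polysialic acid, which loosens that contact. Its level was 11.96, 12.09 and 12.15 (lowest, median and highest) in Nic, 12.01, 12.08 and 12.15 in Con-Pf and 11.92, 12.11 and 12.30 in Con. Con 5 (12.30) and Con 3 (12.28) were the highest of the 25 arrays. The difference was -0.04 ± 0.05 in Nic against Con and -0.03 ± 0.04 in Con-Pf against Con (adjusted p = 0.622 and 0.686, limma), and without Con 3 and Con 5 it was 0.02 ± 0.04 and 0.03 ± 0.04, with the direction turned. The probe set does not separate the Ncam1 isoforms.

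Ncam2, a relative of Ncam1 known in mouse for the sorting of olfactory axons, measured 10.71, 10.75 and 10.85 (lowest, median and highest) in Nic, 10.58, 10.76 and 10.90 in Con-Pf and 10.66, 10.71 and 10.86 in Con. Of the 9 it had the highest difference above 0 in Nic against Con, 0.05 ± 0.04 (adjusted p = 0.532, limma), and the difference was 0.02 ± 0.04 in Con-Pf against Con (adjusted p = 0.741). The Nic difference was 0.08 ± 0.05 (adjusted p = 0.953) once Con 3 and Con 5 were left out. Ncam1 and Ncam2 varied little between animals of a group, with 17.1% and 13.8% of all probe sets kept below them in SD.

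Dscam lets branches of a neuron recognise one another and can act as a netrin receptor. Its probe set 10753393 measured 7.72, 8.04 and 8.31 (lowest, median and highest) in Nic, 7.92, 8.05 and 8.10 in Con-Pf and 7.81, 8.07 and 8.37 in Con. The Con-Pf animals were tightly grouped (SD 0.0483, n = 10), against 0.177 in Nic (n = 7) and 0.185 in Con (n = 8), and the spread in Nic came from Nic 1 at the bottom and Nic 2 at the top. Its differences were -0.04 ± 0.07 in Nic against Con, -0.03 ± 0.07 in Con-Pf against Con and -0.01 ± 0.07 in Nic against Con-Pf (adjusted p = 0.802, 0.830 and 0.999, limma).

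Dscam probe set 10753419 measured 6.72, 6.88 and 7.00 (lowest, median and highest) in Nic, 6.80, 6.90 and 7.00 in Con-Pf and 6.78, 6.92 and 7.54 in Con. The Con group was held up by Con 5 (7.54) and Con 3 (7.31), the only arrays above 7.00. Being below the filter, it was read from the limma fit over all 29214 probe sets, in which 0% of probe sets were called in Nic against Con, 0.329% (96) in Con-Pf against Con and 0.0685% (20) in Nic against Con-Pf. There its difference was -0.15 ± 0.08 in Nic against Con and -0.12 ± 0.07 in Con-Pf against Con (adjusted p = 0.511 and 0.517). The Con mean without these arrays was 6.89 (n = 6) in place of 7.02 (n = 8), and the differences were -0.02 ± 0.05 and 0.02 ± 0.04. Neither Dscam probe set passed the test, and the differences of 10753419 moved further without these 2 arrays than those of 10753393, which were then 0.03 ± 0.07 in Nic against Con and 0.04 ± 0.06 in Con-Pf against Con.

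L1cam, the X-linked adhesion molecule of growing and bundled axons that is anchored by ankyrins, measured 10.64, 10.95 and 11.00 (lowest, median and highest) in Nic, 10.57, 10.91 and 10.97 in Con-Pf and 10.64, 10.89 and 11.11 in Con. Nic 1 and Con-Pf 1 lay far below the rest of their groups and Con 2 was the lowest Con array, while Con 5 and Con 3 (11.11 and 11.07) were the highest of the 25. The difference was 0.01 ± 0.06 in Nic against Con, -0.01 ± 0.06 in Con-Pf against Con and 0.02 ± 0.06 in Nic against Con-Pf (adjusted p = 0.938, 0.921 and 0.999, limma). With those left out it was 0.08 ± 0.06 in Nic against Con and 0.05 ± 0.06 in Con-Pf against Con.

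The intervals state what size of change the arrays could have missed, if the animals of a group are independent. Litters are unknown, and each interval holds for its own probe set and not for all at once. Over the 9 probe sets kept, the 95% intervals ran from -0.22 to 0.16 in Nic against Con, from -0.18 to 0.20 in Con-Pf against Con and from -0.19 to 0.16 in Nic against Con-Pf. The farthest bound from 0 among these was 0.22 in size, a 1.17-fold difference. Dscam 10753419, from the fit with no filter, reached further. Its interval ran from -0.32 to 0.02 in Nic against Con and from -0.27 to 0.04 in Con-Pf against Con. All intervals of the 9 probe sets kept lay within 0.25 of 0 in each comparison, as did 69% of those of all probe sets kept in Nic against Con, 72.6% in Con-Pf against Con and 86.4% in Nic against Con-Pf. The median difference of the 9 was -0.02 in Nic against Con, -0.03 in Con-Pf against Con and -0.01 in Nic against Con-Pf, beside 0.02, 0.02 and 0.01 over all probe sets kept. The comparisons with Con share the Con animals, and therefore Con 3 and Con 5.

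**Figure D2:**
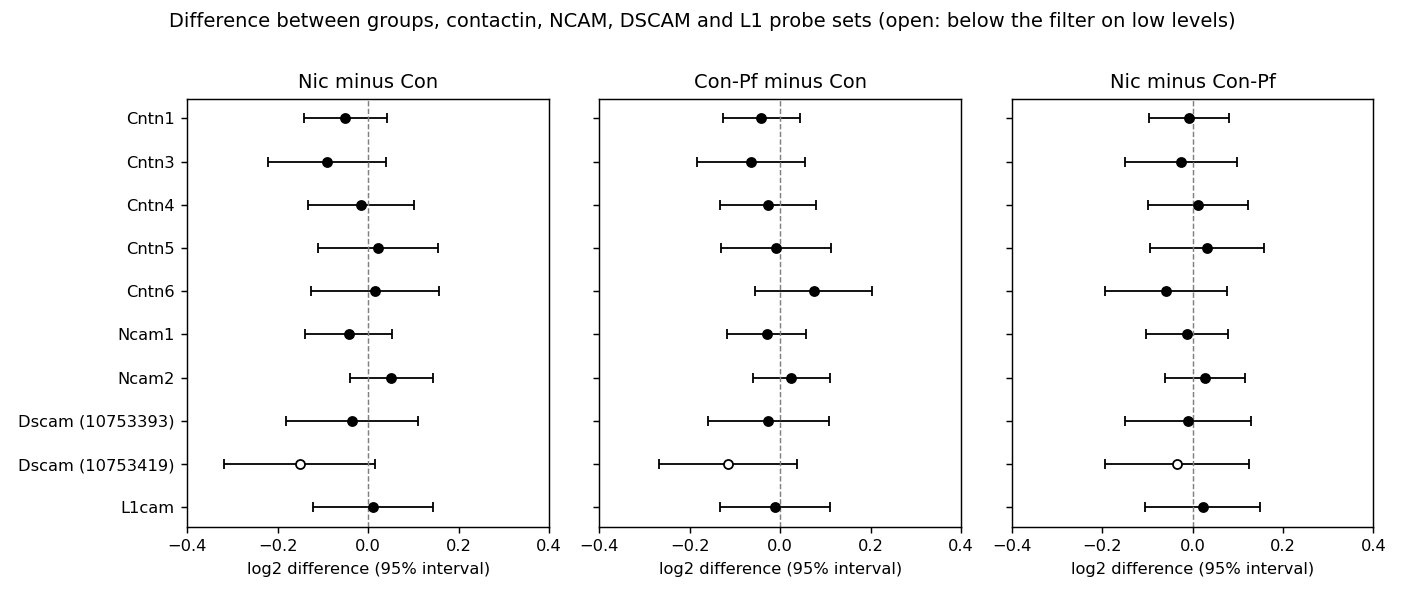
Log2 difference (horizontal axis, points) with its 95% interval (bars) for each probe set in Nic minus Con, Con-Pf minus Con and Nic minus Con-Pf. Filled points come from the limma fit over the 14607 probe sets kept, and the open point, Dscam 10753419, from the fit with no filter. Every interval includes 0, and those of the filled points stay within 0.25 of it.

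Within the groups, several of the adhesion molecules varied together from animal to animal. Deviations from the group means were correlated over the 25 arrays, which share RNA, hybridisation and normalization for every gene, so that the values of r are a description. Over the 36 pairs of the 9 genes the median Pearson r was 0.35, and 27.8% of pairs (10) exceeded 0.5. Over all pairs of the 8989 genes measured the median was 0.06 and 10.4% exceeded 0.5. Without Con 3 and Con 5 the median was 0.30 for these genes and 0.08 for all genes.

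Cntn5 and Cntn6 had an r of 0.73 (rho 0.75), which was 0.75 without Con 3 and Con 5 and 0.70 without Con-Pf 1 and Con 6, the arrays farthest from the Cntn5 median. Within groups it was 0.49 in Nic, 0.75 in Con-Pf and 0.90 in Con. Dscam 10753393 and L1cam had an r of 0.75 (rho 0.53), with 0.73 in Nic, 0.87 in Con-Pf and 0.84 in Con, and 0.56 without Nic 1 and Con 5. In Nic and Con-Pf the values of this second pair rested on 1 array each, the lowest of its group in both genes, since r was -0.31 in Nic without Nic 1 and 0.17 in Con-Pf without Con-Pf 1. In Con it lay between 0.75 and 0.91 whichever array was left out. For Cntn5 and Cntn6 the values with 1 array left out lay between 0.32 and 0.88 in Nic, 0.70 and 0.87 in Con-Pf and 0.83 and 0.95 in Con. Cntn4 and L1cam followed with 0.67 over all arrays, and 0.53 without Con 3 and Con-Pf 1. In Con-Pf their r was 0.61, and -0.11 without Con-Pf 1.

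The chromosomal neighbours Cntn3, Cntn4 and Cntn6 were related to one another at 0.56 (Cntn3 and Cntn4), 0.56 (Cntn3 and Cntn6) and 0.50 (Cntn4 and Cntn6). On the 23 arrays other than Con 3 and Con 5 these were 0.54, 0.68 and 0.56. By contrast, Cntn5, which is on another chromosome, was closer to Cntn6 than either neighbour was over all arrays. Cntn1 stood apart from the other contactins, with an r of 0.41 to Cntn3, 0.16 to Cntn4, -0.03 to Cntn5 and -0.12 to Cntn6. Some pairs rested on Con 3 and Con 5. For example, Ncam1 and Dscam 10753419 had an r of 0.71 with them and 0.24 without, and Ncam1 and L1cam 0.45 with them and 0.12 without.

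**Figure D3:**
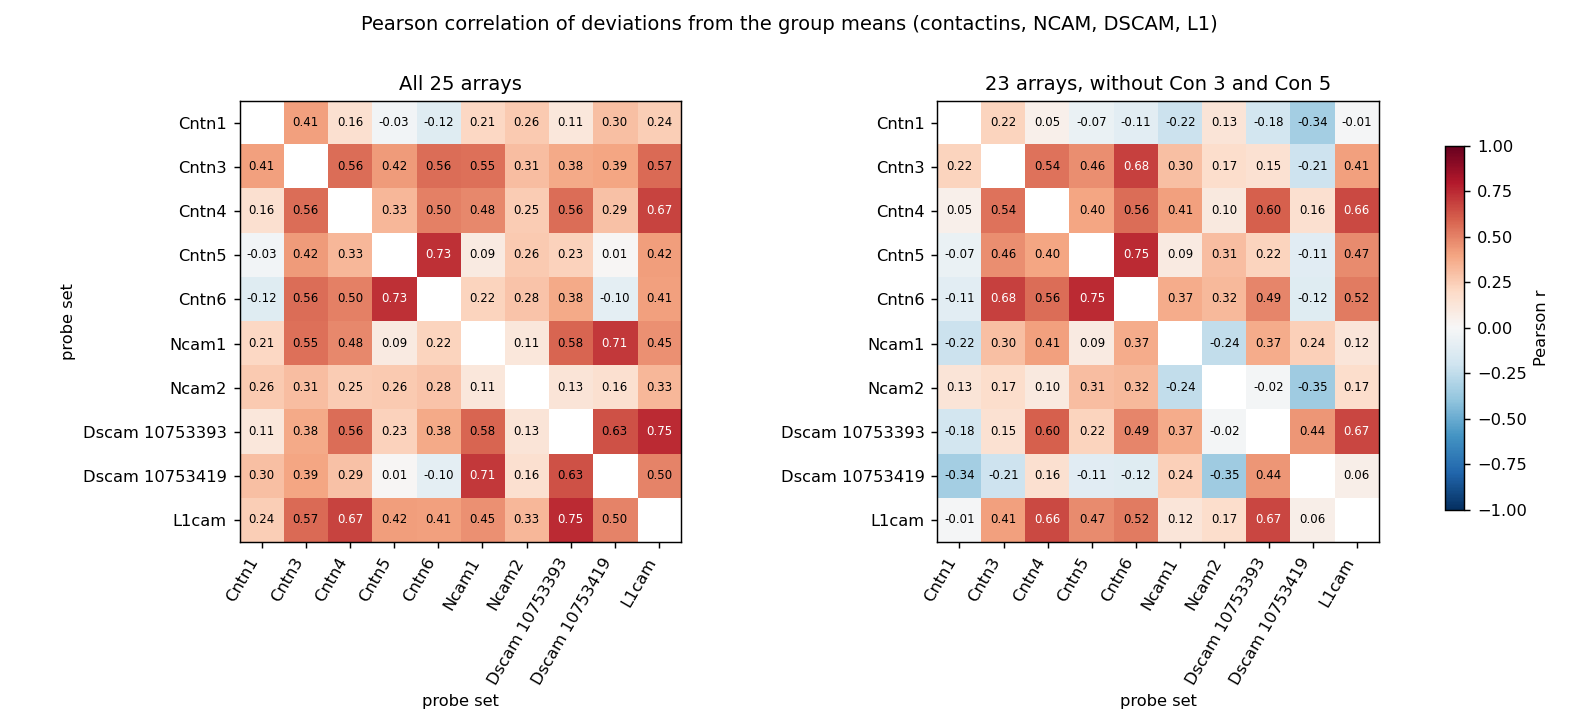
Pearson r between the deviations of each pair of probe sets from their group means, over all 25 arrays (left) and over 23 arrays without Con 3 and Con 5 (right). Red is positive and blue negative, and each cell gives r. Cntn5 with Cntn6 and Dscam 10753393 with L1cam stay high in both panels, whereas Ncam1 with Dscam 10753419 is at 0.71 on the left and 0.24 on the right.

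For each gene, the 3 other genes with the highest r over the 25 arrays were listed. Ncam1 was most like Epb41l1 (0.93), which encodes a protein of the membrane skeleton, with Pip4k2b and Foxo3 next (0.88 each). Cntn3 was most like Pik3c2a (0.91), a lipid kinase gene, and Dscam like Rimbp2 (0.90), a presynaptic protein gene. Cntn1 had Tbc1d9 (0.89) and Glb1l (0.88) as its nearest, Cntn5 had Cspp1 (0.83), and Cntn6 had Mpp7 (0.84), which encodes a scaffold of cell junctions. Cntn4 was most like Sympk (0.81), with Nrxn3 and Adck1 next (0.79 each). Nrxn3, a presynaptic adhesion molecule, was also among the 3 for L1cam (0.85). Ncam2 was most like Gria2 (0.82), a subunit of AMPA glutamate receptors, and L1cam like Phrf1 (0.86). The rest were Nt5dc2 for Cntn1, Atad2b and Usp47 for Cntn3, Pard3 and Birc2 for Cntn5, and Cwf19l2 and St6gal2 for Cntn6. For Ncam2 they were Zc3h14 and Lrp1b, for Dscam Gfra2 and Clstn2, and for L1cam Tulp4. All were picked as the highest over all genes kept, so that r is high by selection. With Con 3 and Con 5 left out, r was 0.86 for Ncam1 with Epb41l1, 0.79 with Pip4k2b and 0.75 with Foxo3, and 0.85 for Dscam with Rimbp2.

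Markers of other cell types moved with some of the genes. The 10 probe sets were set beside 8 marker lists, as deviations from group means over the 25 arrays. Ncam1 and the 7 astrocyte markers had an r of 0.73, or 0.60 without Con 3 and Con 5, which were also the arrays highest in astrocyte markers (11.11 and 11.10). The mean of these markers lay between 10.78 and 10.97 in Nic, 10.82 and 11.08 in Con-Pf and 10.74 and 11.11 in Con. Dscam 10753393 and the cortical neuron markers had an r of 0.59, or 0.41 without Nic 2 and Nic 7. Nic 2 and Con 5, with the highest Dscam levels (8.31 and 8.37), had Slc17a7 levels of 10.5 and 10.3. Nrgn, another marker of this list, was at its lowest of all arrays on Con 5 (13.27). Con-Pf, the tightest group for Dscam, was also the group with the narrowest range of the cortical marker mean. Nic 1, lowest in Dscam, had a Slc17a7 level of 8.64, in the middle of its group. The part of cortical RNA in the spread of Dscam was not tested.

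Cntn1 and the choroid plexus markers had an r of 0.49 but a rho of 0.05, and the r was -0.19 without Con-Pf 4 and Con 2. Thus the relation rested on these arrays, with Cntn1 levels of 12.08 and 12.05. Of the 5 choroid plexus genes listed Ttr and Folr1 were kept. Their mean lay between 6.88 and 9.48 in Nic, 7.04 and 11.8 in Con-Pf and 6.93 and 11.3 in Con. Without Con-Pf 4 and Con 2 the Cntn1 difference was -0.03 ± 0.04 in Nic against Con and -0.05 ± 0.04 in Con-Pf against Con, beside -0.05 and -0.04 with them. Con 5 (a Cntn1 level of 12.06) had a Ttr level of 7.68, and Con 3, the fourth highest in Cntn1, one of 7.14. The part of choroid plexus RNA in the Cntn1 levels was not tested. Tbc1d9 stayed the companion of Cntn1 without Con-Pf 4 and Con 2 (an r of 0.88).

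**Figure D4:**
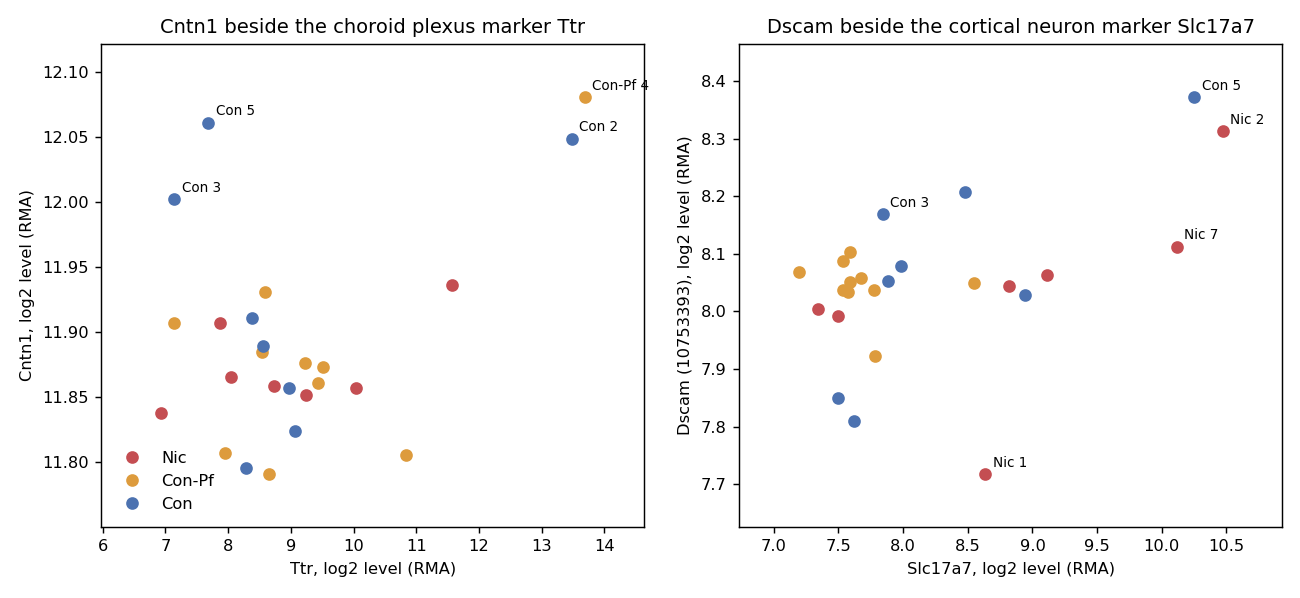
Left, Cntn1 against Ttr, a choroid plexus marker; right, Dscam 10753393 against Slc17a7, a marker of cortical excitatory neurons, each as log2 level (RMA) with 1 point per array and colours for Nic, Con-Pf and Con. Con-Pf 4 and Con 2 are high in both Cntn1 and Ttr, Con 5 and Con 3 in Cntn1 alone, and Con 5 and Nic 2 in both Dscam and Slc17a7.

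Partners of these molecules were followed in 5 lists of 74 genes, of which 58 were kept. No partner gene was called in any comparison (adjusted p, limma), beside 0% of the 8989 genes in Nic against Con, 1.67% (150) in Con-Pf against Con and 0.267% (24) in Nic against Con-Pf. At an unadjusted limma p under 0.05, 2 of 58 were higher and 7 lower in Nic than in Con, beside 14.4% of all genes higher and 3.37% lower. In Con-Pf against Con 7 were higher and 11 lower, beside 16.8% and 7.85%. In Nic against Con-Pf 0 were higher and 2 lower, beside 3% and 2.17%. These counts rested on Con 3 and Con 5 in the comparisons with Con. Without them 1 was higher and 0 lower in Nic than in Con, beside 4.36% and 0.523% of all genes, and 3 were higher and 2 lower in Con-Pf than in Con, beside 6.8% and 2.65%.

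The contactin partners include Cntnap1 of the paranode, the receptor phosphatases Ptprg and Ptprz1, and App. Of the 12 kept, of 17 listed, all 12 had a difference below 0 in Nic against Con (median -0.08, beside 0.03 over all genes; 11 of 12 with arrays centred on their medians), and likewise in Con-Pf against Con (median -0.09, beside 0.02). This was 6 of 12 in each comparison without Con 3 and Con 5, with medians of -0.0041 and 0.0048. The share of all genes below 0 is not given here, so that the counts only describe the list. Ptprg, to which contactins bind, had the smallest p of the 12 in both comparisons with Con. It measured 9.25, 9.40 and 9.43 (lowest, median and highest) in Nic, 9.28, 9.33 and 9.41 in Con-Pf and 9.32, 9.47 and 9.71 in Con. Con 5 was the highest array. The Ptprg difference was -0.12 ± 0.04 in Nic against Con and -0.15 ± 0.04 in Con-Pf against Con (adjusted p = 0.268 and 0.0662, limma), and without Con 3 and Con 5 it was -0.07 ± 0.04 and -0.10 ± 0.04.

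Among the 7 partners of L1cam kept, of 8 listed, 6 were below 0 in Nic against Con and 7 in Con-Pf against Con. Their medians were -0.07 and -0.08, beside 0.03 and 0.02 over all genes, whose share below 0 is not given here. Leaving out Con 3 and Con 5 gave counts of 3 and 5. Ank3, which anchors L1 family members at the axon initial segment and nodes, measured 11.17, 11.24 and 11.29 (lowest, median and highest) in Nic, 11.20, 11.26 and 11.38 in Con-Pf and 11.22, 11.31 and 11.68 in Con. Con 5 and Con 3 (11.68 and 11.57) were above every other array. Its difference was -0.14 ± 0.05 in Nic against Con (adjusted p = 0.268, limma), and -0.05 ± 0.03 without them. Nrp1, the semaphorin receptor that associates with L1cam, measured 8.29, 8.31 and 8.44 in Nic, 8.07, 8.24 and 8.34 in Con-Pf and 8.16, 8.38 and 8.82 in Con. It had a difference of -0.20 ± 0.06 in Con-Pf against Con and of 0.11 in Nic against Con-Pf (adjusted p = 0.0926 and 0.999), with Con 5 and Con 3 again the highest arrays. Without these the difference in Con-Pf against Con was -0.10 ± 0.04.

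The partners of Ncam1 gave the largest differences. St8sia4 encodes the polysialyltransferase that adds polysialic acid to Ncam1. It measured 8.09, 8.29 and 8.43 (lowest, median and highest) in Nic, 8.40, 8.55 and 8.74 in Con-Pf and 7.96, 8.31 and 8.62 in Con. The Con-Pf animals were the highest group, overlapping with Nic only through Nic 6, and the Con arrays that reached into the Con-Pf range were Con 3 (8.62) and Con 5 (8.53). The difference was 0.23 ± 0.07 in Con-Pf against Con and -0.27 ± 0.07 in Nic against Con-Pf (adjusted p = 0.0795 and 0.196, limma), and neither passed. Without Con 3 and Con 5 both passed, at 0.32 ± 0.06 (adjusted p = 0.0055) and -0.27 ± 0.06 (adjusted p = 0.0394). In that fit 85 and 33 of the 14607 probe sets kept were called, in the same order. With the Con-Pf arrays of unsettled group counted as Con, neither St8sia4 difference passed. They were then 0.21 ± 0.07 and -0.28 ± 0.08 (adjusted p = 0.305 and 0.440, limma). Beside St8sia4, Ncam1 itself had a difference of -0.03 ± 0.04 in Con-Pf against Con in the main fit. The other polysialyltransferase gene, St8sia2, was below the filter.

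Gap43, a growth cone protein through which Ncam1 acts on neurite growth, measured 9.79, 9.97 and 10.06 (lowest, median and highest) in Nic, 9.75, 9.91 and 10.03 in Con-Pf and 9.49, 9.75 and 10.03 in Con. Con 5 and Con 3 (9.49 and 9.65) were here the lowest arrays. Its difference was 0.19 ± 0.06 in Nic against Con (adjusted p = 0.268, limma), and 0.13 ± 0.06 without them. Of the relatives of Dscam and netrin receptors 7 of 9 were kept, and the smallest adjusted p was 0.143 in Con-Pf against Con. As with the L1cam partners, 6 were below 0 in Nic against Con and 7 in Con-Pf against Con. Without Con 3 and Con 5 these counts were 2 and 4. Of 32 other immunoglobulin adhesion genes 25 were kept, and 13 were below 0 in each comparison with Con. Nectin2, an adherens junction molecule, had a difference of -0.12 ± 0.05 in Nic against Con-Pf (adjusted p = 0.900).

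**Figure D5:**
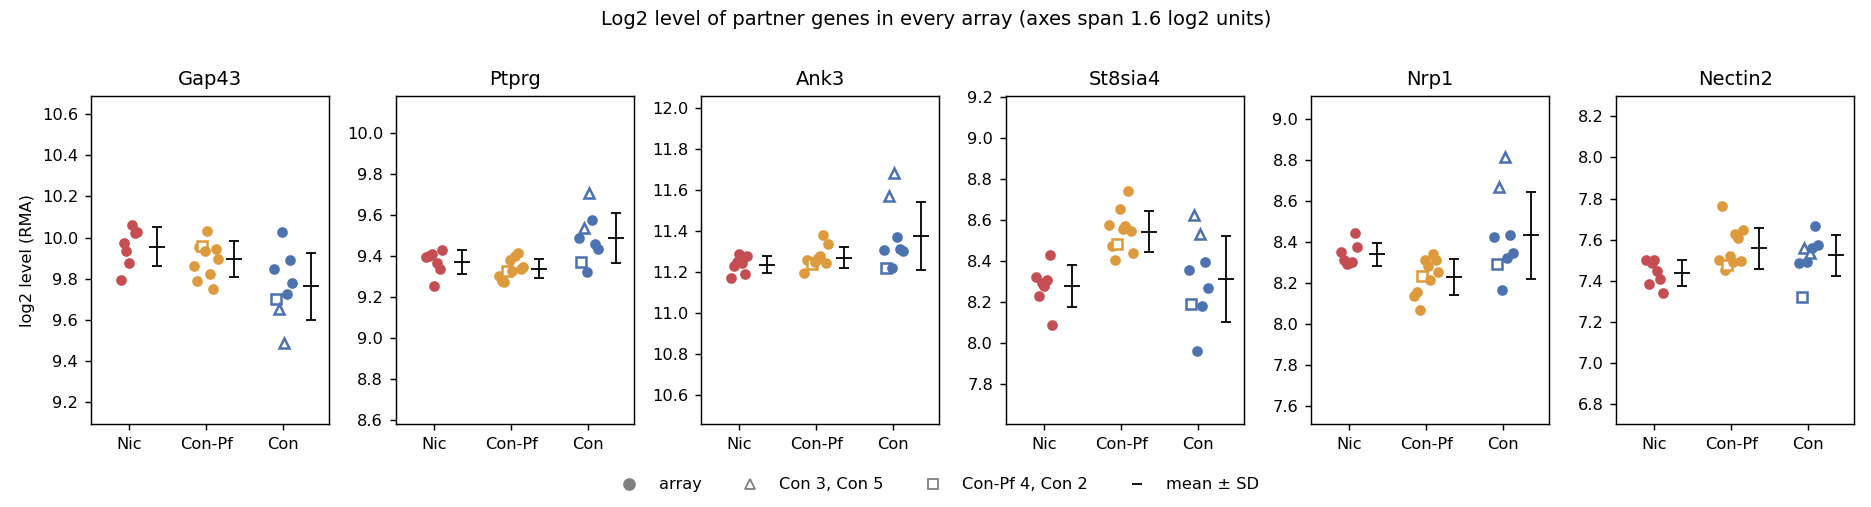
Log2 level (RMA, vertical axes, each 1.6 log2 units high) of the partner genes with the smallest p in the 3 comparisons, on every array, in Nic (7 arrays), Con-Pf (10) and Con (8), with the mean and SD beside the points. Open triangles are Con 3 and Con 5 and open squares Con-Pf 4 and Con 2. St8sia4 is highest in Con-Pf, and Con 3 and Con 5 are the highest Con arrays for Ank3, Nrp1 and St8sia4 and the lowest for Gap43.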

How the data were processed

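Each of 25 rats gave 1 Affymetrix rat gene 1.0st array of striatal RNA; the table holds the arrays that remained after the authors' quality control. The deposited values are log2 levels, made by the authors with RMA, which corrects background, brings the arrays to 1 distribution and summarises the probes of each probe set; the notes on processing by the submitters give RMA, with Affymetrix Expression Console 1.1. All 25 columns were used, and groups come from the titles. Probe sets whose mean reached the median (quantile 0.5) of probe-set means were tested: 14607, with 1 gene symbol for 9606, several for 100 and none for 4901 in the annotation used here. In lists, the brightest probe set stood for its gene (8989 genes).

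One linear model over the 3 groups was fitted with limma 3.58.1 (R 4.3.3), moderated by empirical Bayes, and Benjamini-Hochberg adjustment covered every probe set tested (threshold 0.05). The fit was tested on simulated data. Python 3.11.15 with matplotlib 3.10.9 made the figures. The 9 genes and all gene lists were chosen with earlier results of these data known. The genes named are these 9, the 3 partner genes with the smallest p in each comparison and the 3 genes most like each of the 9. As alternatives, the test was changed (the methods' t-test with unequal variances, only the groups compared, trended robust moderation, array weights, a replicate block), the filter was dropped or raised to quantile 0.75, the arrays were quantile normalized again or centred on their medians, Con-Pf 9 and 10 were left out or counted as Con, Con 3 and Con 5 were left out, and each array was left out in turn. The study names Student's t-test and took p under 0.01 with a log2 difference of at least 0.5 as significant. Calls with the t-test here used unequal variances and an adjusted p under 0.05, so that their number is not the study's. Leaving out Con-Pf 4 and Con 2, and single arrays from the correlations of the closest pairs, was chosen after seeing the data. Single-probe signals were not used here, so the number of arrays and the spread between animals set the precision, and p-values measure that spread, with litters unknown. Sequence windows are from RefSeq (GRCr8), while the sources used here do not name the build behind the probe annotation.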

Additional observations from a re-analysis of the deposited data

Results flagged for a closer look

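Each group was checked for a single array far from the others, by the gap to the nearest array relative to the group range. This gap was large in 5 of 30 checks. For a single check the rate by chance is about 1 in 20. The checks share arrays and several flags fall on Con-Pf 1, so that the count cannot be set against that rate. Con-Pf 1 was the lowest Con-Pf array for L1cam (10.57, the nearest at 10.88, a gap of 0.774 of the range), for Dscam 10753393 (7.92, the nearest at 8.03, 0.613) and for Cntn5 (8.42, the nearest at 8.71, 0.546). The same array had the highest mean of the 8 oligodendrocyte markers kept, of 9 listed, of all 25 arrays (12.69, where the means lay between 12.48 and 12.60 in Nic, 12.46 and 12.69 in Con-Pf and 12.36 and 12.63 in Con), and the part of this in its low values was not tested. Without Con-Pf 1 and Con 7, the r between Cntn5 and the oligodendrocyte markers was -0.01, against -0.43 over all arrays. Nic 1 was the lowest Nic array for L1cam (10.64, the nearest at 10.92, 0.768). Con-Pf 4 was the highest Con-Pf array for Cntn1 (12.08, the nearest at 11.93, 0.516), and it was also the array with the highest Ttr level (13.7).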

How the results depend on the processing

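The count of contactin, NCAM, DSCAM and L1 probe sets called stayed at 0 in every comparison under all 39 alternatives, 25 of which left out 1 array each, and the lowest adjusted p was 0.220. Among 1152 values of their differences, which lay between -0.19 and 0.13, 57 had the opposite sign to the main value. Of differences larger than their error, that of Dscam 10753419 in Con-Pf against Con turned, to 0.018 without Con 3 and Con 5. Partner genes called in Con-Pf against Con numbered 1 with array weights (St8sia4), 1 with a further quantile normalization (Ptprg), 1 without Con 3 and Con 5 (St8sia4), and 0 to 2 with 1 array left out: St8sia4 without Con 3 (adjusted p = 0.0314), Ptprg without Con 2, Con 4 or Con 7 (adjusted p = 0.0482, 0.0275 and 0.0490) and Nrp1 without Con 4 (adjusted p = 0.0381). In Nic against Con-Pf the count was 1, St8sia4, with the 2 groups only, with array weights and without Con 3 and Con 5 (adjusted p = 0.0295, 0.0112 and 0.0394). The causes were not tested. In Nic against Con-Pf the same settings called 28, 55 and 33 of all 14607 probe sets kept. In Con-Pf against Con, 196 were called with array weights and 179 with the further quantile normalization. Without Con 2 and without Con 4 the calls there numbered 181 and 285. With the replicate block over replicates 1 to 7, 0 probe sets of the 9 genes were called in each comparison. Deviations of same-numbered arrays correlated between -0.36 and 0.34, with 10 of 21 pairs over 0.1. Whether replicate numbers pair the animals cannot be told from these values alone. Over all probe sets kept, calls in Con-Pf against Con lay between 104 (without Con 3) and 480 (without Con 7) with 1 array left out. Counts were 85 without Con 3 and Con 5 and 99 with the 2 groups only. The methods' t-test, called at the adjusted p used here and not at the study's cut-offs, gave 66 calls. With Con-Pf 9 and 10 counted as Con there were 27 calls. In Nic against Con-Pf they numbered 55 with array weights, 6 with the methods' t-test and 5 with Con-Pf 9 and 10 counted as Con. Of all probe sets kept with an unadjusted p under 0.05, 75.6% were higher in Nic than in Con, 64.7% in Con-Pf than in Con and 58.2% in Nic than in Con-Pf; a further quantile normalization gave 53.4%, 48.4% and 54.9%, and centring arrays on their medians 83.2%, 58.0% and 75.3%.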
